A study of Mus musculus with 36 samples.

Results

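The genes described here encode subunits of the mitochondrial oxidative phosphorylation system. They were taken by symbol from the array annotation: the Ndufa, Ndufb, Ndufc, Ndufs and Ndufv genes of complex I, Sdha to Sdhd of complex II, the Uqcr genes of complex III, the Cox4i to Cox8 genes of complex IV and the Atp5 genes of complex V. Assembly factors named Ndufaf and pseudogenes were not included, and no measured value entered the choice. The complex was assigned by symbol alone, and where each product sits was not checked. This gave 79 of the 12393 genes that the annotation ties to a probe set of 1 gene, read by 150 probe sets: 34 genes of complex I, 4 of complex II, 8 of complex III, 16 of complex IV and 17 of complex V. After the filter on low signals 73 of them were tested among 7436 genes. The 79 genes were bright, at a median percentile of 94.6 among the 12393 genes by mean log2 signal. The shares of all genes given below for comparison were not matched for signal. The 6 that were not tested all belong to complex IV and are described with the isoform genes.

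The RNA came from mouse embryonic fibroblasts, cells grown out of minced 13.5-day embryos from matings of mice heterozygous for PKBa, after the head and visceral organs had been taken off. One group of arrays carried wild type cells and the other PKBa-/- cells, which lack the kinase PKBa encoded by Akt1. Each genotype was sampled at times labelled 0, 2, 6, 24 and 48, with 4 replicates at times 0, 6, 24 and 48 and 2 replicates at time 2, 36 arrays in all. The labels give these times no unit. The series title names plain DMEM, whereas the extraction protocol describes a change of confluent cells to a medium with isobutylmethylxanthine, dexamethasone and insulin that induces adipocyte differentiation, so the labels leave unstated which medium each array stands for. The cells had been passaged between 15 and 20 times, and the labels do not say from how many embryos or cultures each genotype was derived or whether replicates were separate cultures. The p-values therefore measure the spread between these samples, which may be technical, and a difference between genotypes cannot be told apart from a difference between the cell stocks used.

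Signal medians of the arrays lay between 134 and 145. The Akt1 probe set averaged 1117 in wild type and 74.3 in PKBa-/- cells. Arrays with replicate numbers 1 and 2 of a group resembled each other (r over genes 0.982 to 0.997), as did those numbered 3 and 4, more than arrays of the other pair (0.942 to 0.989). The mean of each pair was therefore used as 1 value, which leaves 2 values a group and 1 at time 2, and differences are also given within replicates 1 and 2 and within replicates 3 and 4. A gene is said to have passed where limma's moderated test, adjusted by Benjamini and Hochberg over the 7436 genes, gave an adjusted p under 0.05. Differences are on the scale of log2(signal + 32) and understate the change of dim genes.

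Oxidative phosphorylation makes most of the ATP of a resting cell. Complexes I and II feed electrons from NADH and succinate into ubiquinone, complex III passes them to cytochrome c, complex IV hands them to oxygen, and the proton gradient that complexes I, III and IV build drives the rotary ATP synthase, complex V. Most subunits are nuclear genes whose products are imported and assembled with a few encoded by mitochondrial DNA, and mitochondrial content and respiration rise when fibroblast-like precursors become fat cells.

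Averaged over times 0, 6, 24 and 48, 5 of the 73 tested subunit genes passed (6.85%), against 17.7% of all genes tested. All 5 were lower in PKBa-/- cells, a direction in which 9.47% of all genes passed: Uqcr11 and Uqcrfs1 of complex III, Ndufa6 and Ndufa12 of complex I, and Atp5d of complex V. No subunit gene passed as higher, against 8.2% of all genes. The count depends on how the arrays are treated. The test used here recovered 0% of 1.5-fold changes in simulated data where 7236 of 7436 genes were unchanged. Those data were given a random deviation shared over all times by the arrays of a genotype and pair of replicates. In the measured data 17.7% of genes passed and the 5 genes had folds of 1.33 to 1.59, so the simulated share does not give the power reached here. With the replicate set as a covariate 15 passed (3 higher and 12 lower), with a random pair effect 35 (11 and 24) and with arrays as replicates 48 (18 and 30). The 5 genes were among them each time, but these settings keep the averaged differences and change the error term, so this is no separate evidence. With an offset of 16, no filter, arrays scaled to one median or an intensity trend, 3 of the 5 passed. Quantile normalization gave 2 subunit genes as higher and 6 as lower. No filter gave 1 and 3, and the mean of all probe sets 1 and 5. None passed as higher with an offset of 16 or 64, scaling to one median or the intensity trend. Over the 73 genes the median difference was -0.07, beside 0.03 over all genes; 28 were positive and 45 negative. The median was 0.03 within replicates 1 and 2 and -0.16 within replicates 3 and 4, so that the sign of the set as a whole depended on the replicates taken. The same sign in both pairs of replicates was seen in 44 of 73 subunit genes (60.3%) and in 75.6% of all genes.

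**Figure D1:**
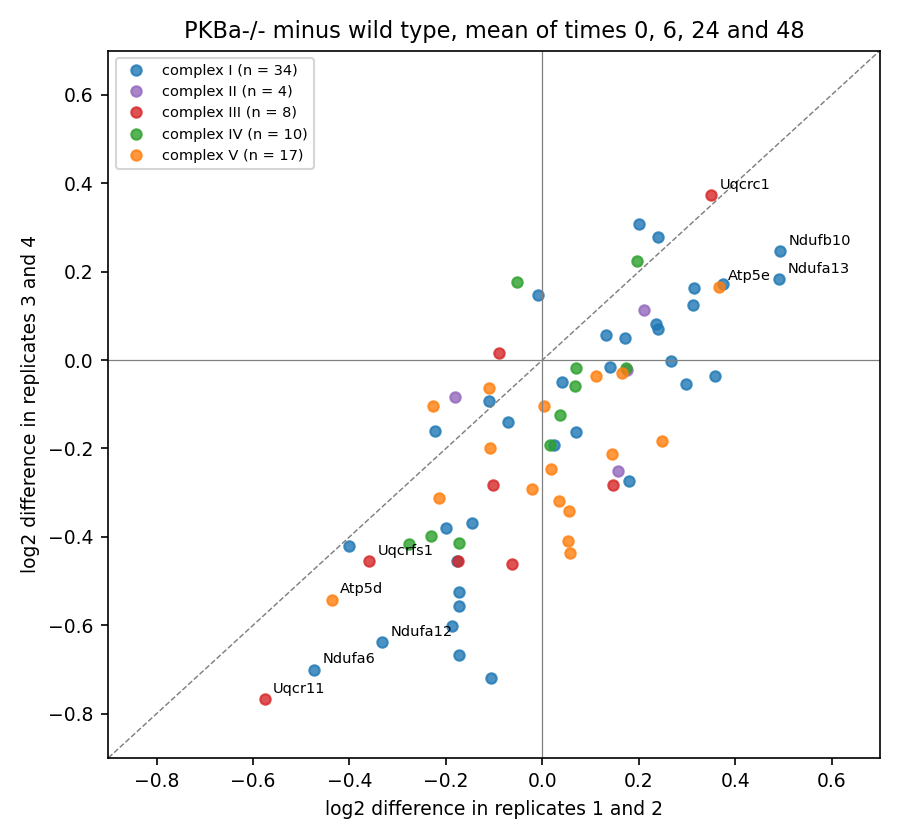
PKBa-/- minus wild type (log2, mean of times 0, 6, 24 and 48) of each of the 73 tested subunit genes in replicates 3 and 4 (vertical axis) against replicates 1 and 2 (horizontal axis), with 1 point a gene, coloured by complex, and a dashed line of equality. Uqcr11, Ndufa6, Atp5d, Ndufa12 and Uqcrfs1 lie at the lower left in both pairs of replicates and Uqcrc1 at the upper right, while the cloud as a whole lies below the line.

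By complex, the lowest median was that of complex III, -0.23, with 7 of 8 genes lower in PKBa-/- cells, and it was negative within both pairs of replicates (-0.10 and -0.37). Complex V followed at -0.14, with 13 of 17 genes lower, but its median was 0.03 within replicates 1 and 2 and -0.21 within replicates 3 and 4. The medians of complexes I, II and IV were -0.02, 0.01 and -0.02, and those of complexes I and IV, as of complex II, changed sign between the pairs of replicates. In complex I, 16 genes were higher and 18 lower, from -0.59 for Ndufa6 to 0.37 for Ndufb10. These medians describe lists of genes measured on the same arrays and were not tested.

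Complex III, the cytochrome bc1 complex, held the gene with the largest difference. Uqcr11, a small accessory subunit, read 1458, 1386, 1798 and 1388 on the 4 wild type arrays of time 0 and 799.5, 1077, 736 and 1111 on the PKBa-/- arrays. At time 48 it read 2062, 1869, 2078 and 1718 in wild type and 1305, 1247, 1105 and 1012 in PKBa-/- cells. The 2 genotypes did not overlap at any of the 5 times. Averaged over times Uqcr11 was 1.59-fold lower in PKBa-/- cells (log2 difference -0.67, SE 0.13, adjusted p = 0.0078), with -0.58 in replicates 1 and 2 and -0.77 in replicates 3 and 4. It passed at each of times 0, 6, 24 and 48, with log2 differences from -0.71 to -0.63, and was the lowest subunit gene at time 2 (-0.55), where it did not pass. These calls held in all 36 fits that each left out 1 array. In such a fit the other array stood for its pair, so no pair was left out and dependence on 1 pair was not tested. Arrays of other times enter a difference at 1 time through the spread alone, and arrays of time 2 do not enter the averaged fit.

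Uqcrfs1, the Rieske iron-sulfur protein that takes electrons from ubiquinol, read 1665, 1350.1, 1660.4 and 1229.5 in wild type at time 48 and 1034, 1012, 988 and 864 in PKBa-/- cells. Its genotypes were closest at time 24, where the lowest wild type array read 1256 and the highest PKBa-/- array 1245, and they did not overlap at any time. The averaged difference was -0.41 (SE 0.12, adjusted p = 0.048), and the gene passed at time 0 (-0.41), time 6 (-0.39) and time 48 (-0.58). At time 0 the call was lost without PKBa-/- replicate 3 (adjusted p = 0.142), and at time 6 without that array, PKBa-/- replicate 2 of time 6 or wild type replicate 3 of time 48 (up to 0.063). The averaged call was lost in 12 of 36 fits (up to 0.062, without wild type replicate 3 of time 48). Uqcrb, a small matrix-side subunit, passed at time 48 (-0.43, adjusted p = 0.037), with 6547 to 6918 on the wild type arrays and 4438 to 5818 on the PKBa-/- arrays. It lost this call without PKBa-/- replicate 1 of time 0 or 48, replicate 2 of time 24, or replicate 4 of time 0 or 24 (adjusted p up to 0.081).

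Uqcrc1, a core protein on the matrix face of the same complex, ran the other way. It read 1432, 1446, 1174 and 1332 in wild type at time 0 and 1729.9, 1688, 1815 and 1790.3 in PKBa-/- cells. At time 48 it read 1124, 1065, 1081 and 1122 in wild type and 1264, 1369.9, 1399.8 and 1259 in PKBa-/- cells. The genotypes did not overlap at any time, and PKBa-/- cells were always the higher. Uqcrc1 passed at times 0 (0.38), 6 (0.39) and 24 (0.42), while the averaged difference of 0.36 (SE 0.12, adjusted p = 0.070) missed the threshold; it was 0.35 and 0.37 in the 2 pairs of replicates. The call at time 24 was lost without wild type replicate 2 of that time (adjusted p = 0.052), and the call at time 0 without wild type replicate 3 of time 0 or replicate 1 of time 24 (adjusted p up to 0.057). The core protein gene Uqcrc2 differed by -0.04 (adjusted p = 0.88), and Uqcr10, Uqcrh and Uqcrq, all small subunits, by -0.26, -0.19 and -0.07, none of which passed.

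**Figure D2:**
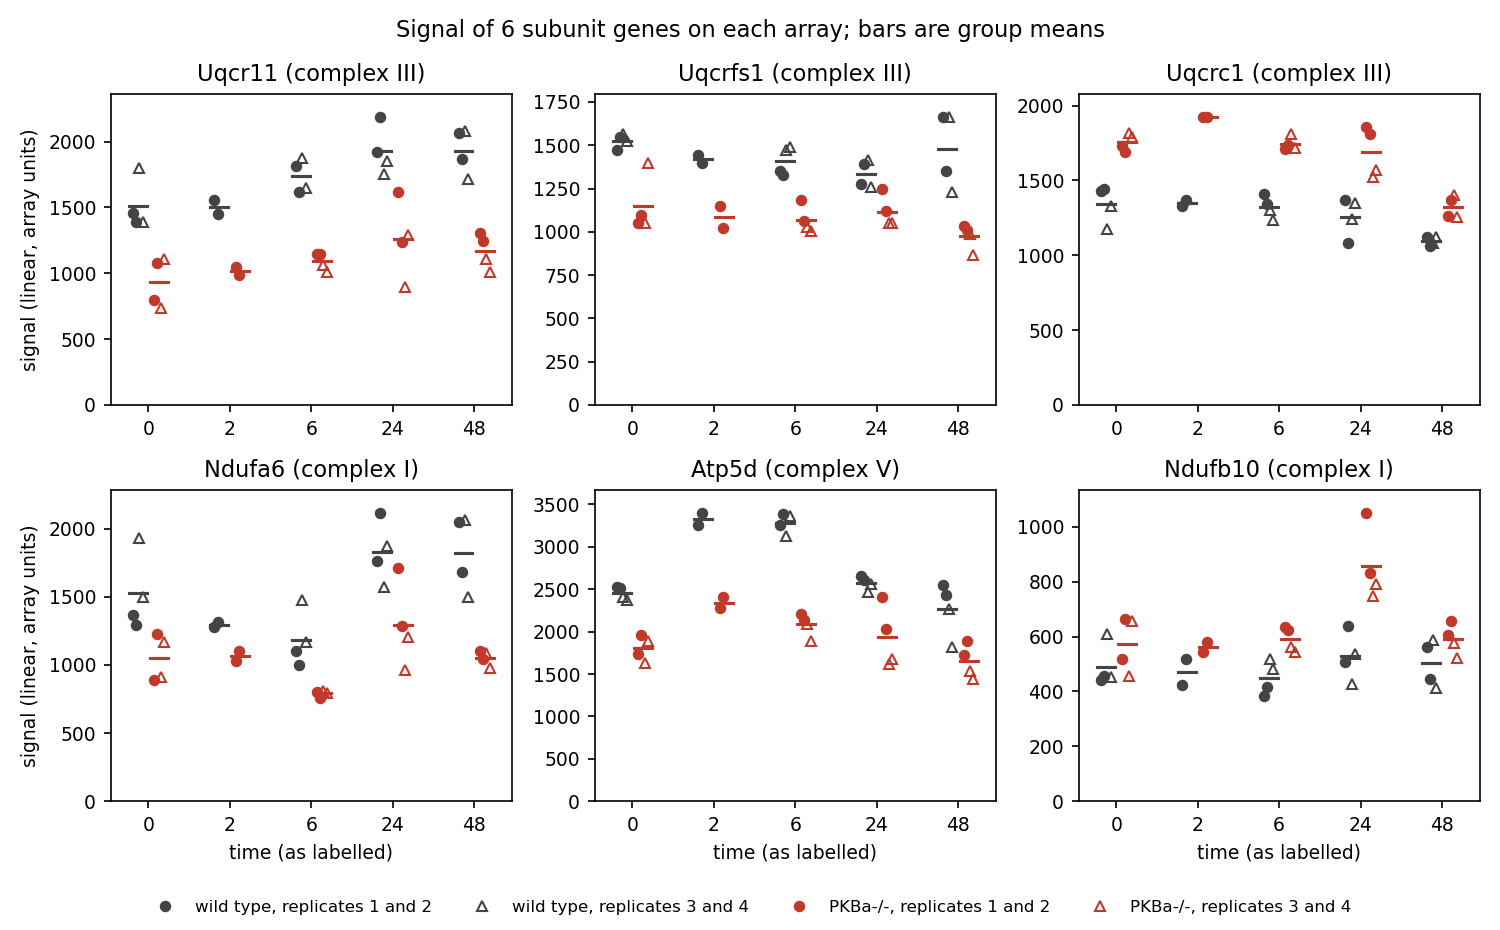
Signal (linear, array units, axes from 0) of Uqcr11, Uqcrfs1, Uqcrc1, Ndufa6, Atp5d and Ndufb10 on every array by labelled time, with wild type in grey and PKBa-/- in red, replicates 1 and 2 as filled circles, replicates 3 and 4 as open triangles and bars at the group means. PKBa-/- arrays lie below wild type arrays for Uqcr11 and Uqcrfs1 and above them for Uqcrc1 at all 5 times; Ndufb10 stands apart at time 24.

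The bases before the start sites of these genes are shown because Uqcr11 and Uqcrc1 of the same complex differed in opposite directions and because promoters of respiratory genes are known to bind the factors NRF1, GABP (an ETS factor) and YY1. Promoters of 65 of the 79 genes were found in the RefSeq promoter table, which runs from 250 bases before to 50 after each start on GRCm38.p6. The 150 bases just before the start are given 5′ to 3′ on the gene's strand, with a match on either strand to CCGGAAG (ETS) or to the palindromic NRF1 consensus, the letters in capitals in the Atp5g2 line, in capitals. They are chr10:80406822-80406971 (minus strand) for Uqcr11, chr13:30545317-30545466 (minus) for Uqcrfs1, chr9:108936498-108936647 (plus) for Uqcrc1, chr15:82354292-82354441 (minus) for Ndufa6, chr10:94198885-94199034 (plus) for Ndufa12, chr10:80142165-80142314 (plus) for 1 of the 2 starts of Atp5d, and chr15:102671048-102671197 (minus) for Atp5g2. Uqcrc1 and Atp5g2 are among the 4 genes with an NRF1 match. The level of Atp5g2 changed with time in both genotypes, as did that of Ndufv3, which is not shown. A link between a match and the level was not tested.
Uqcr11: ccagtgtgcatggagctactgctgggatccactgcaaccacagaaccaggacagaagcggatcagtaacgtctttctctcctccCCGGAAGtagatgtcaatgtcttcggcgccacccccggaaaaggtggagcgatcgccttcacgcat
Uqcrfs1: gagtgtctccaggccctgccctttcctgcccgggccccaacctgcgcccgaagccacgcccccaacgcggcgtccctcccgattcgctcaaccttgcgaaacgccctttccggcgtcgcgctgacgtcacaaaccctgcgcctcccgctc
Uqcrc1: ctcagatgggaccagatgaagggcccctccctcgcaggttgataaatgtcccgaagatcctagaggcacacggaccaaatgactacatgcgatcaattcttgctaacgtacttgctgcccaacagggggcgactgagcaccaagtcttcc
Ndufa6: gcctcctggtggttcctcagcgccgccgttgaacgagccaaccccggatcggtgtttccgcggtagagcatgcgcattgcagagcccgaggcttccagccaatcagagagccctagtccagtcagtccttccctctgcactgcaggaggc
Ndufa12: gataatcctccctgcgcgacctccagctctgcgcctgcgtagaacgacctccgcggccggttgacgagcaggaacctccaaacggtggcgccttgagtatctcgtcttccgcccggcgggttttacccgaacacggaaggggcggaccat
Atp5d: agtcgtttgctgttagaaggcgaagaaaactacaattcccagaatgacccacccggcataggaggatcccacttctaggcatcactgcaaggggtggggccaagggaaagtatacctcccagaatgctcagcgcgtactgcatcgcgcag
Atp5g2: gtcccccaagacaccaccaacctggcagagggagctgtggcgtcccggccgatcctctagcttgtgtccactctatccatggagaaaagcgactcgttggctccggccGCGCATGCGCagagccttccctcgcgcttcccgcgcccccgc

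Of the 5 genes that were lower in PKBa-/- cells, Uqcr11 had an ETS match, 66 bases before its start, and none of the others matched any of the 3 motifs in the 300-base window. Uqcrc1 had an NRF1 match that begins 31 bases after the start, outside the stretch shown, and Atp5g2 one that begins 42 bases before it. Over the 70 promoters of the 65 genes, the NRF1 consensus was found on either strand in 4 (5.71%), against 0.971% of the 32851 promoters in the table. CCGGAAG was found in 17 (24.3%, against 8.86%) and the YY1 letters AAGATGGCG in 6 (8.57%, against 1.4%), whereas CCAAT was found in 27 (38.6%, against 37.4%). In all, 24 promoters (34.3%) held at least 1 of the first 3 motifs, against 10.8%. A match describes the letters only, and the array data hold no measure of binding.

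In complex I, the NADH dehydrogenase, 2 of 34 genes passed for the averaged difference, both accessory subunits. Ndufa6 read 1369, 1297, 1935 and 1498 in wild type at time 0 and 891, 1228, 911 and 1167 in PKBa-/- cells. At time 48 the wild type arrays read 2051, 1679.7, 2061 and 1499 and the PKBa-/- arrays 1101, 1047, 1086 and 978. The genotypes overlapped at time 24 and at no other time, through a PKBa-/- replicate 1 of 1712. Averaged over times Ndufa6 was 1.5-fold lower (-0.59, SE 0.12, adjusted p = 0.012; -0.47 and -0.70 in the 2 pairs of replicates), and it passed at times 0 (-0.52), 6 (-0.55), 24 (-0.51) and 48 (-0.76). The averaged call and that at time 48 held in all 36 fits without 1 array, the others in 20, 30 and 28 of them, with adjusted p up to 0.138 without PKBa-/- replicate 1 of time 0 for time 0, and up to 0.072 and 0.16 without PKBa-/- replicate 2 of time 24 for times 6 and 24.

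Ndufa12 read 1545, 1430.4, 1737 and 1311 in wild type at time 0 and 913, 1122, 851 and 802 in PKBa-/- cells, with no overlap. At time 24 it read 1368, 1601, 1421 and 1413 against 1617, 1339, 841 and 962, so that the genotypes overlapped. The averaged difference was -0.49 (SE 0.14, adjusted p = 0.048; -0.33 and -0.64 in the 2 pairs of replicates). Its 3 probe sets above the filter gave -0.53 to -0.45. Ndufs4, a subunit whose loss impairs complex I assembly, passed at times 0 (-0.49), 6 (-0.45) and 48 (-0.46) but not averaged over times (-0.41, adjusted p = 0.061). Each of its 3 calls was lost without PKBa-/- replicate 2 of time 24; those at times 6 and 48 also without wild type replicate 3 of time 48, that at time 6 without PKBa-/- replicate 4 of time 6 or 24, and that at time 0 without PKBa-/- replicate 1 or 3 or wild type replicate 3 of time 0 (adjusted p up to 0.0955, 0.072 and 0.078 at times 0, 6 and 48). Ndufa8 passed at time 48 (-0.57, adjusted p = 0.013), where the wild type arrays read 2006, 1779, 2515 and 2000.1 and the PKBa-/- arrays 1427, 1460.3, 1215 and 1402. Ndufa2 passed at time 0 (-0.48), although its genotypes overlapped there, and Ndufb11 at time 6 (-0.43). Ndufa2 lost its call in 13 of 36 fits without 1 array (adjusted p up to 0.215, without PKBa-/- replicate 3 of time 0), and Ndufb11 in 5 (up to 0.076, without PKBa-/- replicate 4 of time 24). The averaged call of Ndufa12 was lost in 14 fits (up to 0.066, without PKBa-/- replicate 1 of time 0), and its call at time 0 (-0.69) without that array or wild type replicate 3 of time 0 (up to 0.051).

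Complex I also held the gene with the highest averaged difference, ahead of Uqcrc1. Ndufb10, an accessory subunit of the membrane arm, read 509, 637, 429 and 536 in wild type at time 24 and 1050.2, 833, 749 and 792 in PKBa-/- cells. The genotypes did not overlap there, and the difference of 0.67 (SE 0.15, adjusted p = 0.0065, 1.59-fold) was the largest upward one of any subunit gene at any time; it held in all 36 fits without 1 array. Over the 4 times its difference was 0.37 (adjusted p = 0.081). Ndufv3, a subunit of the NADH-oxidising module, passed at time 6 (0.33, adjusted p = 0.039), with 2248 to 2493 in wild type and 2857 to 3095 in PKBa-/- cells. It lost this call in 6 of 36 fits without 1 array (adjusted p up to 0.081, without PKBa-/- replicate 4 of time 24). The catalytic core genes of the module and its neighbours differed little: Ndufv1 by 0.15, Ndufv2 by 0.12, Ndufs1 by 0.11, Ndufs7 by -0.11 and Ndufs8 by 0.16, none of which passed.

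In complex V, Atp5d, the delta subunit of the central stalk of ATP synthase, was the 1 gene of 17 that passed. It read 2525, 2509.6, 2403 and 2377 in wild type at time 0 and 1738, 1966, 1629 and 1892 in PKBa-/- cells. At time 6 it read 3252, 3382, 3129.9 and 3368 against 2208, 2141, 2091 and 1895. The genotypes overlapped at time 48 alone, where wild type replicate 4 read 1824 and PKBa-/- replicate 2 read 1892. Averaged over times Atp5d was 1.4-fold lower (-0.49, SE 0.13, adjusted p = 0.035; -0.44 and -0.54 in the 2 pairs of replicates), and its other probe set above the filter gave -0.37. It passed at time 6 (-0.65) and time 48 (-0.45), the latter in 27 of 36 fits without 1 array, with an adjusted p up to 0.129 without wild type replicate 3 of time 48. Atp5e, the epsilon subunit that binds the delta subunit in the stalk, read higher in PKBa-/- cells, 0.27 averaged over times, and did not pass (adjusted p = 0.20). Atp5a1, Atp5b and Atp5c1, the alpha, beta and gamma subunits of the catalytic head and stalk, differed by -0.15, -0.05 and -0.14, none of which passed.

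In complex IV, cytochrome c oxidase, no gene passed for the averaged difference. Among the genes named Cox the lowest were Cox6c (-0.35, adjusted p = 0.11) and Cox6a1 (-0.32, adjusted p = 0.12). The highest was Cox7a2l (0.21, adjusted p = 0.31), a factor that joins complexes III and IV into supercomplexes. Ndufa4, counted with complex I by its symbol, differed by -0.39 and did not pass (adjusted p = 0.0865). Cox5a, a matrix-side subunit, passed at time 48 (-0.53, SE 0.13, adjusted p = 0.011). It read 3815, 3514, 4144 and 4289.6 in wild type there and 2684, 2710.0, 2888 and 2559.6 in PKBa-/- cells, with no overlap, and the call held in all 36 fits without 1 array. In complex II, succinate dehydrogenase, which also belongs to the citrate cycle, the flavoprotein gene Sdha, the iron-sulfur gene Sdhb and the membrane anchors Sdhc and Sdhd differed by -0.13, -0.05, 0.16 and 0.08, and none passed at any time.

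**Figure D3:**
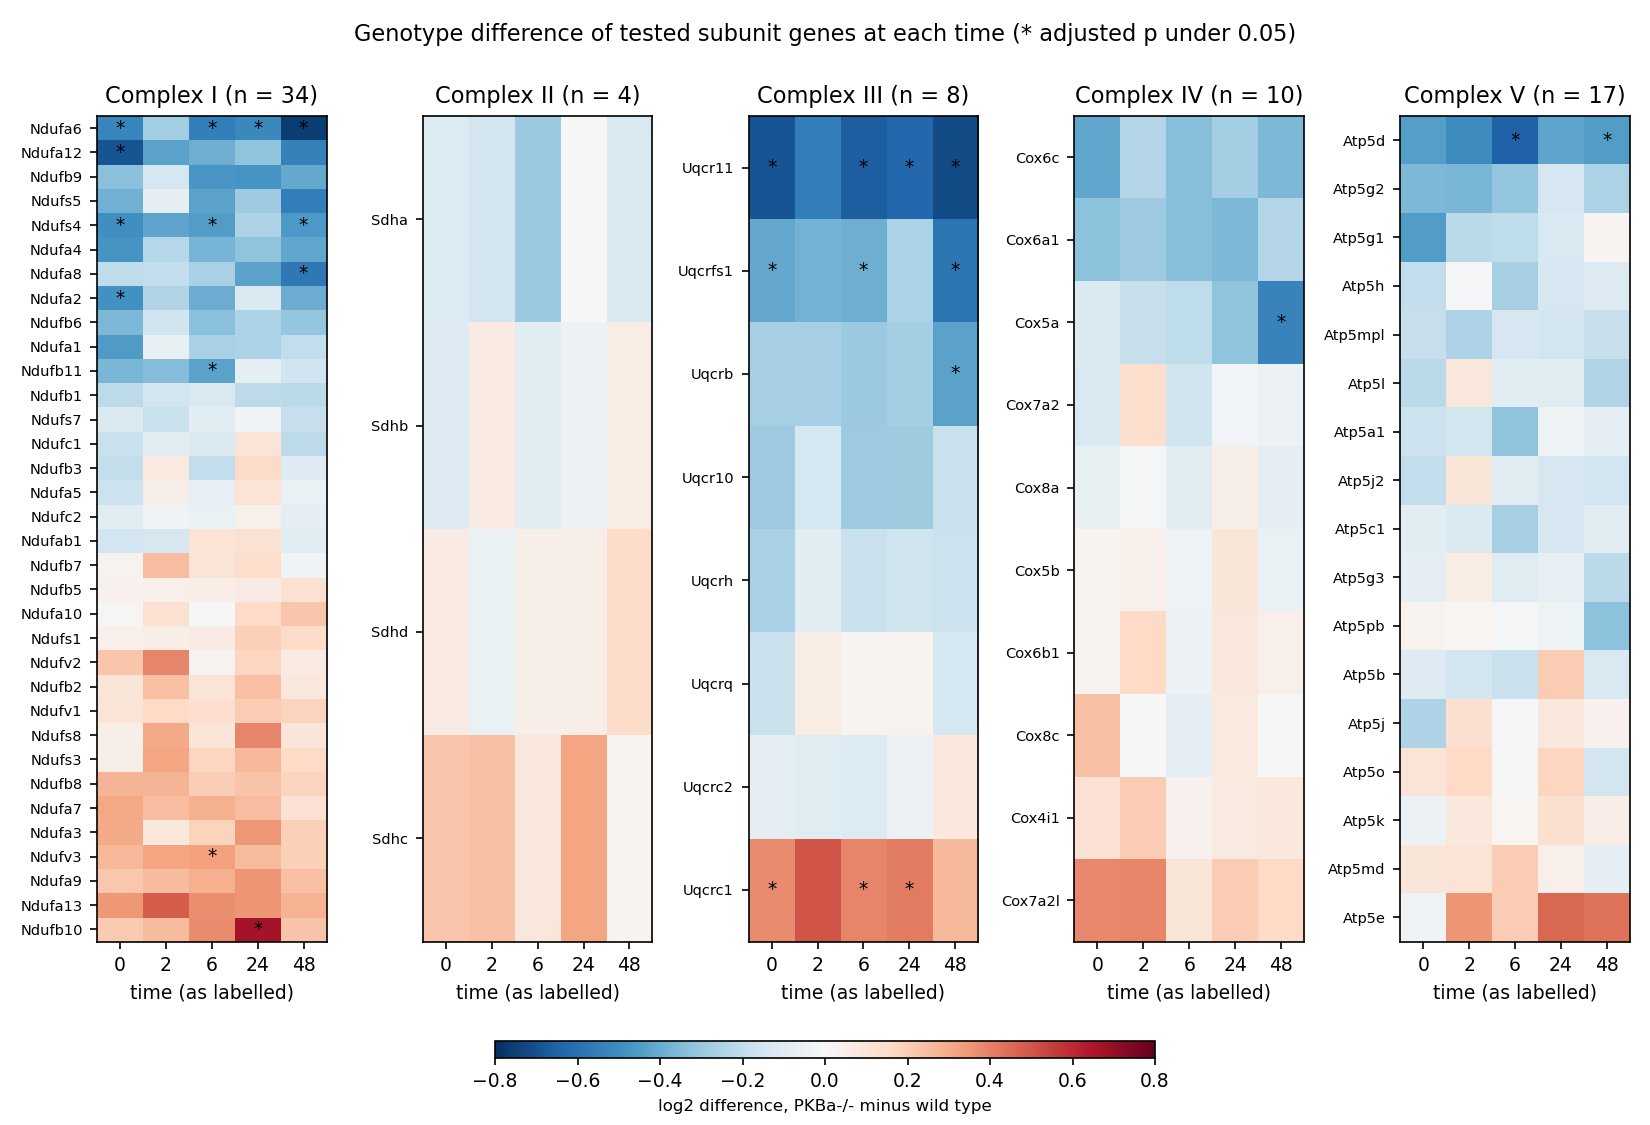
Log2 difference, PKBa-/- minus wild type, of the 73 tested subunit genes (rows, by complex, ordered by the averaged difference) at each labelled time (columns), blue where PKBa-/- was lower and red where it was higher; an asterisk marks an adjusted p under 0.05. Uqcr11 is blue at every time and carries 4 asterisks, Uqcrc1 is red at every time, and most other cells are pale.

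Counted at each time, 7 of 73 subunit genes passed at time 0, where 14.8% of all genes passed: 1 was higher in PKBa-/- cells (6.48% of all genes) and 6 were lower (8.34%). At time 6, 8 passed (16.5% of all genes), 2 as higher (8.51%) and 6 as lower (8.02%). At time 24, 4 passed (20.4% of all genes), 2 as higher (9.79%) and 2 as lower (10.7%). At time 48, 8 passed (23.2% of all genes), none as higher (12.4%) and 8 as lower (10.8%). The members' shares were 9.59%, 11%, 5.48% and 11%, below that of all genes at each of these times. At time 2, with 1 pair of arrays a genotype, none passed (limma, 7 at an unadjusted p under 0.05; arrays as replicates, 8 passed), against 5.78% of all genes. A difference of the same sign at all 5 times was seen in 46 genes, 28 lower and 18 higher in PKBa-/- cells. These are 63% of the subunit genes (38.4% lower and 24.7% higher), beside 50.5% of all genes (21.5% lower and 29% higher). At time 24, 37 genes were positive and the median was 0.03, whereas at times 0, 6 and 48 the medians were -0.11, -0.09 and -0.09; the time 24 median was 0.12 in replicates 1 and 2 and -0.12 in replicates 3 and 4.

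The span between the highest and lowest of the 10 group means, which takes genotype and time together, had a median of 0.47 over the subunit genes and 0.68 over all genes tested, and it exceeded 1 in 3 of 73 (4.11%), against 25.5% of all genes. These were Ndufa6 (1.17), Uqcr11 (1.05) and Atp5d (1.01), each with its lowest mean in a PKBa-/- group and its highest in a wild type group, while Ndufb5 of complex I had the smallest span (0.19). The 2 arrays of a pair differed by a median of 0.10 in the subunit genes and 0.09 in all genes. Neither the spans nor these differences were matched for signal, and the subunit genes are brighter than most. Against time 0, no subunit gene passed at time 2 in wild type (2.73% of all genes passed) or in PKBa-/- cells (3.39%), with 1 and 0 genes at an unadjusted p under 0.05 in limma and 1 passing in each genotype when arrays were taken as replicates. At time 6, 1 passed in wild type (11.9% of all genes; 4.22% higher and 7.69% lower) and 2 in PKBa-/- cells (18.4%; 8.59% and 9.78%), all 3 as lower. At time 24, 1 passed in wild type (5.66%; 2.21% higher and 3.46% lower) and 4 in PKBa-/- cells (6.15%; 2.8% and 3.35%), all as higher. At time 48, 1 passed as higher in wild type (6.01%; 2.12% higher and 3.89% lower) and 1 as lower in PKBa-/- cells (7.45%; 3.07% and 4.38%).

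The gene that fell at time 6 in both genotypes was Atp5g2, 1 of 3 genes for the c subunit of the membrane ring of ATP synthase. In wild type it read 3043, 3003, 3357 and 2889.5 at time 0 and 2346, 2191, 2420.0 and 1783 at time 6. In PKBa-/- cells it read 2138, 2809, 2134 and 2543 at time 0 and 1771, 1770.3, 1733 and 1715 at time 6. Times 0 and 6 did not overlap in either genotype, and the fall was 1.41-fold in wild type (-0.49, SE 0.14, adjusted p = 0.038) and 1.36-fold in PKBa-/- cells (-0.44, adjusted p = 0.042). By time 24 the wild type arrays read 2994 to 3268. Each call held in 30 of 36 fits without 1 array, with adjusted p up to 0.093 without wild type replicate 4 of time 6 and up to 0.107 without PKBa-/- replicate 2 of time 0. The other c-subunit genes did not pass at time 6, nor did Cox7a2l in wild type (-0.18), which in PKBa-/- cells fell from 1791 to 2064 at time 0 to 1305 to 1492 at time 6 (-0.47, adjusted p = 0.044; lost in 7 of 36 fits, with adjusted p up to 0.069 without wild type replicate 3 of time 48).

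At time 24 the 4 genes that passed in PKBa-/- cells were all of complex I; without 1 array the count lay between 1 and 7. Uqcr11 (0.42, adjusted p = 0.108) and Uqcrh (0.41, adjusted p = 0.092) of complex III had changes as large as the smallest of the 4 and did not pass. Ndufc1, a small accessory subunit, read 1295, 1539, 1205 and 1670.0 at time 0 and 2634, 1966, 1939.8 and 2208 at time 24 without overlap, a rise of 0.61 (SE 0.10, adjusted p = 0.0048, 1.52-fold) that held in all 36 fits without 1 array. Ndufb11 rose by 0.63 (adjusted p = 0.012), Ndufb10 by 0.56 (adjusted p = 0.043) and Ndufv3 by 0.40 (adjusted p = 0.032). In wild type the same genes changed by 0.32, 0.34, 0.10 and 0.41, of which the change of Ndufv3 passed (adjusted p = 0.030; 2334 to 2635 at time 0 and 3138 to 3531 at time 24). This call was lost without wild type replicate 4 of time 0 or PKBa-/- replicate 4 of time 24 (adjusted p up to 0.0665). Ndufv3 also passed at time 48 in wild type (0.37), in 27 of 36 fits without 1 array (adjusted p up to 0.107 without wild type replicate 3 of time 48). Without PKBa-/- replicate 3 of time 0 the adjusted p of Ndufb11 was 0.060 and that of Ndufb10 0.122, and without PKBa-/- replicate 4 of time 24 that of Ndufv3 was 0.154. The PKBa-/- calls of Ndufb11, Ndufb10 and Ndufv3 held in 34, 26 and 33 of 36 such fits. At time 48 in PKBa-/- cells Uqcrc1 was lower than at time 0 (-0.40, adjusted p = 0.049), a call that held in 17 of 36 fits without 1 array (adjusted p up to 0.076, without PKBa-/- replicate 4 of time 48).

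Beyond the genes that passed, most of the set read higher at time 24 than at time 0. In PKBa-/- cells 63 of 73 subunit genes were positive (86.3%), beside 47.6% of all genes, with a median of 0.15 against -0.01. In wild type 52 were positive (71.2%, beside 52.1%), with a median of 0.07 against 0.01. The PKBa-/- median was 0.20 in complex I, 0.05 in complex II, 0.18 in complex III, 0.14 in complex IV and 0.12 in complex V. In wild type it was 0.08, -0.04, 0.08, 0.15 and 0.06, the 10 complex IV genes all being positive. The sizes differed between the pairs of replicates: 0.25 and 0.10 in PKBa-/- cells, and 0.15 and 0.01 in wild type. A rise in both pairs was seen in 47 of 73 genes in PKBa-/- cells (64.4%, beside 31.1% of all genes). In wild type it was seen in 34 (46.6%, beside 37.3%). The wild type median was 0.03 with arrays scaled to one median and 0.13 with quantile normalization, and the PKBa-/- median was 0.16 with either. By time 48 the medians were 0.00 in PKBa-/- cells and 0.01 in wild type.

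The mean log2 signal of the 73 genes shows how far single arrays carry this. In PKBa-/- cells it was 10.55, 10.75, 10.45 and 10.73 on the arrays of time 0 and 11.03, 10.81, 10.60 and 10.75 on those of time 24, replicates 1 to 4. Replicates 1 and 2 did not overlap between the times, and replicates 3 and 4 did. The mean change in PKBa-/- cells was 0.18 and lay between 0.11, without replicate 3 of time 0, and 0.25, without replicate 4 of time 0. In wild type it was 0.08 and lay between 0.03, without replicate 4 of time 0, and 0.12, without replicate 3 of time 0, which had the highest mean of its group (10.88 against 10.66 to 10.69). The difference between the genotypes' changes was tested gene by gene: none of the 73 passed in the F test over the 4 later times (limma, 0 at an unadjusted p under 0.05; arrays as replicates 0, with the replicate number as a block 1), against 1.75% of all genes. None passed for the change at time 2, 6, 24 or 48 taken alone (limma, 0, 0, 1 and 1 at an unadjusted p under 0.05), against 0.242%, 0.551%, 0.726% and 1.14% of all genes.

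**Figure D4:**
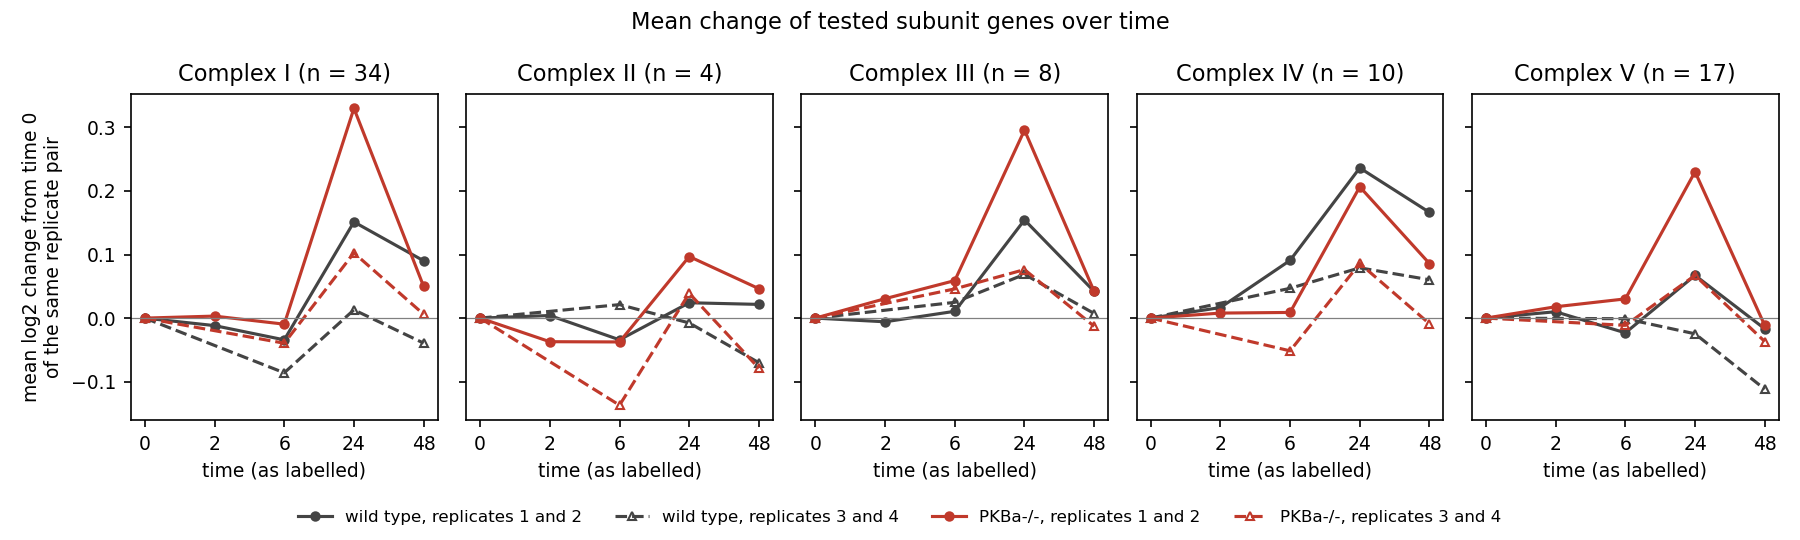
Mean log2 change of the tested genes of each complex from time 0 of the same pair of replicates, by labelled time, for wild type (grey) and PKBa-/- (red), with replicates 1 and 2 as solid lines and replicates 3 and 4 as dashed lines that have no value at time 2. All lines peak at time 24 in complexes I, III and IV, and the rise of PKBa-/- replicates 1 and 2 in complex I (0.33) exceeds that of replicates 3 and 4 (0.10).

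Several complex IV subunits have paired isoforms, 1 found in most tissues and the other largely in muscle, lung, testis or brown fat. The brightest probe sets of Cox4i2, Cox6a2, Cox6b2, Cox7a1 and Cox8b, the tissue-restricted partners, read low: the median over the 36 arrays was 80.2 for Cox4i2, 111 for Cox6a2, 33.0 for Cox6b2, 27.3 for Cox7a1 and 71.2 for Cox8b, and none of these genes was tested. The genes of the widely expressed forms Cox4i1, Cox6a1, Cox6b1, Cox7a2 and Cox8a were tested and differed between the genotypes by 0.08, -0.32, 0.03, -0.09 and -0.04. Cox8c, known from testis, was above the filter (282 to 441 in wild type and 261 to 512 in PKBa-/- cells over 16 arrays each) and differed by 0.06. Cox7c, a subunit with 1 widely expressed form, read 40.1 at the median, and its 2 probe sets on this array were both below the filter, so it has no test. The c-subunit genes Atp5g1, Atp5g2 and Atp5g3 differed by -0.19, -0.26 and -0.11, and none passed.

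Of the 44 genes with several probe sets, 41 had more than 1 above the filter, and in 35 of these all gave the averaged genotype difference the same sign, with a median spread of 0.061. The sharpest disagreement was in Ndufb9 of complex I, whose probe sets gave -0.42 to 0.02, and Uqcrq gave -0.07 to 0.16. Uqcr11, Ndufa6, Uqcrfs1, Uqcrc1, Ndufb10 and Ndufv3 were read by 1 probe set each, so their differences rest on 1 set of oligonucleotides. Where several genes or processed copies share such letters their signals cannot be separated on this array.

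Genes around the complexes were mixed in direction. Over all genes tested 17.7% passed for the averaged difference, 8.2% as higher and 9.47% as lower. Of 29 assembly factors tested, 2 passed as higher and 1 as lower for the averaged difference: Ndufaf3, for complex I (0.72, adjusted p = 0.0079), Uqcc2, for complex III (0.65, adjusted p = 0.0071), and Cox19, for copper delivery to complex IV (-0.61, adjusted p = 0.0097). Their median was 0.08. Of 17 citrate cycle and pyruvate dehydrogenase genes 2 passed as higher, Fh1 (0.50) and Dlat (0.42), and 3 as lower, Mdh2 (-0.64), Ogdh (-0.52) and Suclg2 (-0.40). Of 14 regulators of mitochondrial biogenesis 2 passed as higher, Myc (0.70) and Pprc1 (0.62), and 1 as lower, Nrip1 (-1.14), a corepressor of respiratory genes in fat. Nrf1 (-0.12) and Tfam (-0.34) did not pass, and Ppargc1a, the coactivator of brown fat, was below the filter at a mean of 41.1 in wild type and 32.5 in PKBa-/- cells. Of 74 mitochondrial ribosomal protein genes 2 passed as higher and 5 as lower, and of 7 carriers and channels 1, Vdac2 (0.44), as higher. Cytochrome c1, Cyc1, the complex III subunit that the symbol rule leaves out, averaged 1782 ± 211 in wild type and 1359 ± 123 in PKBa-/- cells (SD, n = 18 arrays, 5 times pooled), a difference of -0.40 that did not pass (adjusted p = 0.0915).

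In PKBa-/- cells at time 6, 10 of the 74 mitochondrial ribosomal protein genes and 7 of the 29 assembly factors passed as higher, and 0 and 1 as lower, while no subunit gene passed as higher there (8.59% of all genes did). At time 24 in PKBa-/- cells, where 4 subunit genes passed as higher (2.8% of all genes did), 1 mitochondrial ribosomal protein gene passed as higher, no assembly factor passed, and of the citrate cycle list Pcx, pyruvate carboxylase, rose by 1.36. The difference between these lists was not tested.

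Several marker sums differed between the genotypes, and their part in the differences above was not tested. The summed signal of the 4 mesothelium markers on the array ran from 4706 to 8270 over the wild type arrays and from 133 to 193 over the PKBa-/- arrays, and 3 of the 4 were tested. That of the 10 markers of fibroblasts, the labelled cell type, all tested, ran from 45364 to 64823 in wild type and from 66030 to 75629 in PKBa-/- cells. Averaged over times 4 of these passed as higher and 0 as lower (8.2% and 9.47% of all genes). At time 0 none passed, and at times 24 and 48 alike 6 passed as higher and 1 as lower. The 7 adipocyte markers, of which 3 were above the filter, summed to 2636 to 5883 in wild type and 1114 to 2192 in PKBa-/- cells; lipoprotein lipase, Lpl, made most of this, at 3376 against 924. The 3 tested adipocyte markers did not share a direction: averaged over times Lpl was lower (-1.89, adjusted p = 0.00012), Slc2a4 differed by 0.04 and Cebpa by 0.42 without passing, and at time 48 Cebpa passed as higher (0.66, adjusted p = 0.027). The 4 endothelium markers summed to 521 to 1686 in wild type and 289 to 489.8 in PKBa-/- cells through Kdr, the 1 tested, which passed as lower at all 5 times (-1.73 averaged), while Pecam1, Cdh5 and Tek were below the filter. The 6 macrophage markers summed to 528 to 1065 and 405 to 655; of the 2 tested, Cd14 passed as lower (-1.25, adjusted p = 0.016) and Csf1r did not pass (0.10). The 4 brown adipocyte markers on the array summed to 225 to 1354 in wild type and 186 to 273 in PKBa-/- cells. Of these 1 was tested, which passed as lower averaged over times (-2.03) and, of the single times, at time 6 alone (-2.93). Ucp1, the uncoupling protein that defines brown fat, was below the filter in both (72.9 and 75.4). In such bulk RNA, fewer cells of a type and less RNA per cell cannot be told apart.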

How the data were processed

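Values were the intensity of each probe set, linear and above 0, as the authors deposited them for 36 Affymetrix arrays; their summary and normalization steps are not given in the sources used. Per the labels' protocols, total RNA was turned into biotinylated cRNA. Of 22690 probe sets, 20380 had 1 gene in the platform annotation, 691 several, 1555 none and 64 were controls. Each gene was read on its brightest probe set as log2(signal + 32), and the 40% of genes with the lowest mean were not tested. The means of arrays 1 and 2 and of arrays 3 and 4 (18 pair means) were fitted with 1 mean for each of the 10 groups in limma 3.58.1 under R 4.3.3 (8 residual and 4.24 prior degrees of freedom), two-sided, with Benjamini-Hochberg adjustment over all genes tested. The averaged genotype difference was fitted to 4 values a gene, 1 for each genotype and pair of replicates (2 residual and 6.64 prior degrees of freedom). The tests were run on simulated data of 7436 genes, of which 7236 were unchanged. The averaged test recovered 0% of 1.5-fold, 34% of 2-fold and 78% of 3-fold changes with 2 false calls. Its simulated data held a further random deviation, shared over all times by the arrays of a genotype and pair of replicates. The data for time 48 lacked this deviation, so the recoveries of the 2 tests cannot be compared. The test at time 48 recovered 32%, 78% and 96% with 5 false calls. Treating the 36 arrays as replicates gave 422 false calls at time 48. The simulated arrays of a pair were given a shared deviation, so this excess was built in and is no evidence about the measured arrays.

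Named genes were, in each complex, the highest and lowest averaged difference, members that passed in a comparison (up to 8 a direction averaged over times, up to 4 at each time), the isoform and succinate dehydrogenase genes, and up to 4 passing genes of each pathway list. Core subunits and other members given as values, Cyc1, Nrf1, Tfam, Uqcrh, Ppargc1a and the markers were added to these to describe their complexes or lists, after their values were seen. The members, lists and tests were chosen with earlier results of these data known. The number of arrays limits the precision.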

Additional observations from a re-analysis of the deposited data

Results flagged for a closer look

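Among 152 groups of 4 arrays looked at, over 14 genes and the means of the complexes, 6 held an array whose gap to the nearest other exceeded the 95% limit of Dixon's test. With 4 independent arrays a group chance would give about 7.6. The arrays come in close pairs and the genes share arrays, so the 6 cannot be judged against that number. Wild type replicate 3 of time 0 accounted for 3 of them: it read 608 for Ndufb10, where the others read 441 to 456, its mean log2 over the complex I genes was 10.53, where the others lay from 10.27 to 10.29, and its mean over the complex IV genes was 11.65, where the others lay from 11.51 to 11.52. The remaining 3 were Cox7a2l on wild type replicate 2 of time 24 (1937, others 1787 to 1801), Ndufv3 on PKBa-/- replicate 3 of time 24 (3278, others 4071 to 4205) and Uqcrfs1 on PKBa-/- replicate 4 of time 0 (1399, others 1048 to 1099).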

How the results depend on the processing

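How the arrays of a pair were counted moved the counts of subunit genes that passed most. With arrays as replicates they were 48 averaged over times, 28, 8, 27, 24 and 26 for the genotype difference at times 0, 2, 6, 24 and 48, 1, 5, 13 and 11 for the later times in wild type and 1, 7, 19 and 11 in PKBa-/- cells. With the pair as a random effect they were 35 averaged, 5 at time 6, 0 and 0 in wild type at times 24 and 48, and 1 and 1 in PKBa-/- cells at times 6 and 24. With the replicate set as a covariate they were 15 averaged, 16, 1 and 13 for the genotype difference at times 0, 2 and 24, 2, 3 and 3 in wild type at times 6, 24 and 48, and 9 and 5 in PKBa-/- cells at times 24 and 48; with the set within genotype, 3, 13 and 9 in wild type and 8, 16 and 11 in PKBa-/- cells at times 6, 24 and 48. Pair means of all 5 times gave 36 averaged. The cause was not tested.

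Replicate numbers do not pair the samples by the labels: deviations of same-numbered arrays correlated from -0.212 to 0.719 within a genotype and 14 of 36 arrays correlated best with their own number. With the number as a replicate block on single arrays the counts were 49 averaged, 31, 11, 27, 30 and 27 for the genotype difference at the 5 times, 1, 7, 15 and 12 in wild type, 1, 10, 22 and 14 in PKBa-/- cells, and 1 in the F test.

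Quantile normalization gave 8 averaged, 17, 2, 13 and 11 for the genotype difference at times 0, 2, 6 and 24, 2, 5 and 3 in wild type at times 6, 24 and 48, and 7 and 4 in PKBa-/- cells at times 24 and 48. Over all genes that passed, it put 47.5%, 46.7% and 51.9% as higher in wild type at times 6 and 48 and in PKBa-/- cells at time 2, against 35.4%, 35.3% and 63.5%, and scaling to one median put 66% and 78.1% as higher at time 2 in wild type and PKBa-/- cells, against 47.8% and 63.5%. Scaling to one median gave 3 averaged, 3, 3 and 5 for the genotype difference at times 0, 6 and 48, 0, 0 and 0 in wild type and 0, 2 and 0 in PKBa-/- cells at times 6, 24 and 48. An offset of 16 gave 3 averaged and 0 at time 48 in each genotype, an intensity trend 3 averaged and 0 at time 48 in PKBa-/- cells. No filter gave 1 and 2, and the mean of all probe sets 1 and 2, in PKBa-/- cells at times 6 and 48, and the mean also 8 for the genotype difference at time 24. Uqcr11, Ndufa6 and Atp5d, Ndufa12 and Uqcrfs1 were all among the calls with the arrays, random effect, block, set, quantile, offset 64 and probe set mean settings. An offset of 16, no filter, scaling to one median and the intensity trend each kept 3 of these 5.

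Without 1 array the counts lay between 3 and 6 averaged, 3 and 12, 0 and 0, 4 and 9, 3 and 8, and 5 and 10 for the genotype difference at times 0, 2, 6, 24 and 48, 0 and 0, 0 and 1, 0 and 2, and 0 and 2 for the later times in wild type, 0 and 0, 0 and 2, 1 and 7, and 0 and 2 in PKBa-/- cells, and 0 and 0 in the F test. The averaged count was 3 without wild type replicate 2 of time 24, replicate 1 or 3 of time 48, or PKBa-/- replicate 1 or 3 of time 0, 4 of time 6, 2 or 4 of time 24 or 4 of time 48: Ndufa12 passed in 22 and Uqcrfs1 in 24 of the 36 fits. At time 0 it was 3 without wild type replicate 3 and 12 without PKBa-/- replicate 1 of time 24, and at time 24 in PKBa-/- cells 1 without PKBa-/- replicate 3 of time 0 or 4 of time 24. Of 2898 values of named genes under an alternative, 235 fell short of the threshold and 43 newly passed. Of the values that passed in either fit 0 reversed sign, and sign changes of values that passed in neither were not counted. Of 486 medians, 94 moved by more than the spread between the pairs, or between arrays at time 2. The 486 include the medians within each pair, which themselves set that spread. The leave-one-out values of the mean change to time 24 were chosen after seeing the data. No fit left out both arrays of a pair.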
